A study of Arabidopsis thaliana with 6 samples.

Results

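Expansins and xyloglucan endotransglucosylase/hydrolases (XTHs) act on the plant cell wall. Expansins loosen the wall without cutting it, by weakening the contacts between cellulose and other wall polymers. The family has an alpha class (EXPA), a beta class (EXPB) and expansin-like proteins (EXLA and EXLB). XTHs cut xyloglucan, the hemicellulose that coats cellulose, and can join the cut end to another chain. In the root, pericycle cells at the xylem poles swell before the first divisions of a lateral root, and the tissues over them yield as it grows.

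The transcripts of 6 such genes were followed here: the alpha expansins EXPA4 (AT2G39700), EXPA8 (AT2G40610), EXPA15 (AT2G03090) and EXPA18 (AT1G62980), the beta expansin EXPB1 (AT2G20750), and XTH20 (AT5G48070). They were chosen by name, dim genes included, with earlier results of these data known. The choice was made out of 13286 genes that the annotation used here pairs with a probe set of their own. A further 8794 probe sets are unnamed in it, so a gene without a pair was not analysed here and may still be on the array. Each was read by 1 probe set. The cells were xylem pole pericycle cells of Arabidopsis thaliana, sorted by the green fluorescent protein of the GAL4-GFP line J0121, and each time point had 2 one-colour Affymetrix arrays. All seedlings grew on 10 µM NPA, which blocks auxin transport. The 0 h cells were taken at 72 hours after germination, and the 2 h and 6 h cells at 74 and 78 hours, once seedlings had spent 2 h or 6 h on the synthetic auxin NAA at 10 µM. Time on NAA and age thus moved together and cannot be told apart. The series' design text places 0 h at an arrest before S phase, 2 h in auxin signalling and passage to S phase, and 6 h at mitosis or the asymmetric division. The labels call the arrays of a time point biological replicates and do not say what was grown or sorted separately, so the p-values measure the spread between these arrays.

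Array medians ran from 75.8 to 109.9 signal units, and the arrays of a time point correlated across probe sets at 0.87 to 0.938. The controls added before hybridisation were brighter on 1 array of each time point, with geometric means of 13624 against 2609 at 0 h, 6000 against 1780 at 2 h, and 10425 against 2798 at 6 h. The actin control probe sets gave 3′ to 5′ ratios of 2.22 and 1.40 at 0 h, then 2.98 and 1.37 at 2 h, and then 4.48 and 3.84 at 6 h. The ubiquitin ratio was also higher at 6 h, at 8.81 and 10.7, than at 0 h, at 8.31 and 5.99, while that of GAPDH overlapped between these times. At 2 h the ubiquitin ratio was 6.13 and 9.71, which overlapped with 6 h. None of the 6 stele and pericycle markers looked up (WOL, SHR, PHO1, SKOR, GATA23 and AHP6) was paired with a probe set of 1 gene in that annotation, so these markers were not analysed here.

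EXPA4 and EXPA15 rose on NAA, XTH20 fell between 2 h and 6 h, and the remaining 3 genes were dim and were not called at any time. A gene was called at an adjusted p under 0.05 in limma, on log2(signal + 5), over all 13647 probe sets whose mean log2 value passed a filter at the 40th percentile. This filter lay near a signal of 50.9. EXPA4, EXPA15, EXPA18 and XTH20 passed it, and EXPA8 and EXPB1 did not. In limma's F test over the 3 time points 3 of the 4 tested genes were called, beside 29.6% of all tested probe sets. The adjusted p was 2.61e-05 for EXPA4, 0.000231 for EXPA15, 0.00103 for XTH20 and 0.454 for EXPA18.

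**Figure D1:**
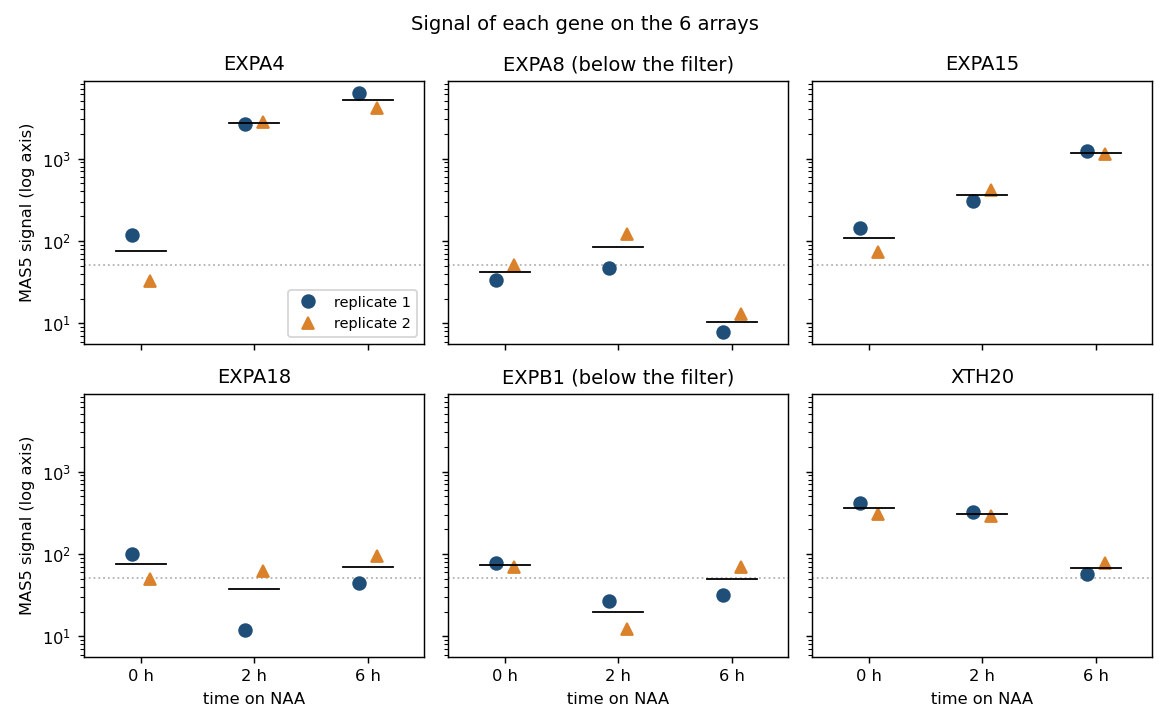
MAS5 signal (log axis) of the 6 genes at 0 h, 2 h and 6 h on NAA. Circles are replicate 1, triangles replicate 2, black lines the mean of the 2 arrays, and the dotted line marks the signal of 50.9 near which the filter on the mean log2 value lay. EXPA4 and EXPA15 climb from 0 h to 6 h, and XTH20 drops at 6 h. The signals of EXPA8, EXPA18 and EXPB1 lie on both sides of the dotted line and reach at most 120.3.

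EXPA4 encodes an alpha expansin. Its signal was 117.9 and 32.8 on the arrays of replicates 1 and 2 at 0 h, then 2596 and 2773 at 2 h, and then 6247 and 4098 at 6 h. Every array on NAA lay above both 0 h arrays, and both 6 h arrays lay above both 2 h arrays. At 2 h the log2 change against 0 h was 5.30 ± 0.48 (SE, n = 2 arrays per group), a 39.4-fold rise with a 95% interval of 19.0 to 81.9 (adjusted p = 0.000181, limma). Only 4 of the 13647 tested probe sets rose more. At 6 h the change was 6.22 ± 0.48, or 74.3-fold (adjusted p = 1.22e-05). The step from 2 h to 6 h, 0.91 ± 0.48, was not called (95% interval -0.14 to 1.97, adjusted p = 0.286). On the log2 scale 85.3% of the change seen at 6 h was present at 2 h.

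The size of the EXPA4 rise depended on the 0 h arrays, whose signals were near the filter. Without replicate 1 at 0 h it was 71.1-fold at 2 h and 134-fold at 6 h, and without replicate 2 it was 21.9-fold and 41.2-fold. Among the arrays with brighter hybridisation controls the log2 change was 4.50 at 2 h and 5.06 at 6 h, and among those with dimmer controls it was 6.10 and 7.37. These last differences are between single arrays and carry no test. The rise was called at both times in each fit that left out 1 array. In these bulk samples more transcript per cell and more cells that hold the transcript cannot be told apart, which applies to every gene below.

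EXPA15, also an alpha expansin, rose in 2 steps of like size. Its signal was 145.3 and 72.8 at 0 h, then 304.9 and 418.3 at 2 h, and then 1220 and 1124 at 6 h. The 3 time points did not overlap. The log2 change was 1.74 ± 0.38 at 2 h, a 3.35-fold rise (95% interval 1.87 to 5.99, adjusted p = 0.0139, limma), and 3.44 ± 0.38 at 6 h, a 10.9-fold rise (6.08 to 19.4, adjusted p = 7.25e-05). Between 2 h and 6 h it rose by a further 1.70 ± 0.38, or 3.25-fold (1.82 to 5.80, adjusted p = 0.0176). At 2 h 50.7% of the log2 change of 6 h was present. The rise from 0 h to 6 h was called in every alternative fit. The 2 h call was lost without replicate 2 at 2 h (adjusted p = 0.134). The call from 2 h to 6 h was lost without any single array of those times (adjusted p = 0.155 and 0.0572 without replicate 1 or 2 at 2 h, 0.116 and 0.0942 without replicate 1 or 2 at 6 h) and without the intensity trend (0.0544).

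Of the 4 tested genes 2 rose and 0 fell at 2 h, where 7.26% of all tested probe sets rose and 4.12% fell. At 6 h against 0 h 2 rose and 1 fell, beside 16.8% and 17% of all. From 2 h to 6 h 1 rose and 1 fell, beside 3.13% and 5.59%. Of all calls at 2 h 63.8% were rises, and 82.4% were after each array was centred on its median, which left the calls of these 4 genes in place. The median change of all tested probe sets was -0.15 at 2 h and -0.11 at 6 h with the authors' scaling, and 0.12 and 0.01 with that centring.

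**Figure D2:**
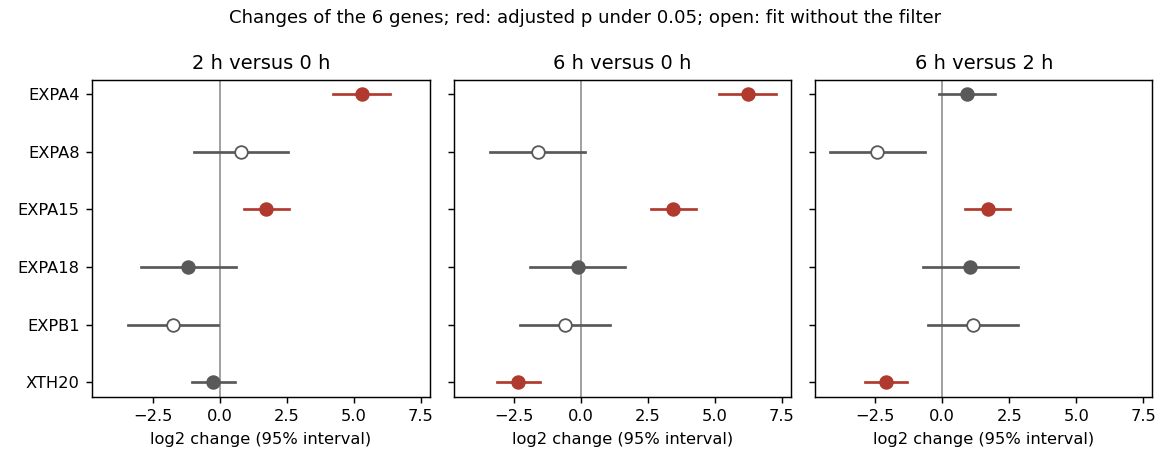
Log2 change of the 6 genes in the 3 comparisons, with 95% intervals from limma. Red marks an adjusted p under 0.05, and open circles mark EXPA8 and EXPB1, which were read from the fit without the filter. EXPA4 and EXPA15 lie right of 0 at 2 h and 6 h, and XTH20 lies left of 0 in both comparisons of 6 h.

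EXPA8, an alpha expansin, lay below the filter, with signals of 33.9 and 51.1 at 0 h, then 47.6 and 120.3 at 2 h, and then 7.9 and 12.9 at 6 h. Both 6 h arrays were lower than the other 4, while 0 h and 2 h overlapped. In limma's fit without the filter its log2 change was 0.80 ± 0.81 at 2 h (adjusted p = 0.676), -1.62 ± 0.81 at 6 h (adjusted p = 0.207) and -2.42 ± 0.81 from 2 h to 6 h (95% interval -4.18 to -0.66, adjusted p = 0.132). That fit called 5.89% of 22746 probe sets at 2 h, 19.2% at 6 h and 4.84% from 2 h to 6 h, and neither EXPA8 nor EXPB1 among them.

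EXPA18 is known from root hair cells, where this alpha expansin is expressed with EXPA7. Its signal was 101.2 and 49.9 at 0 h, then 12.1 and 62.6 at 2 h, and then 44.9 and 93.6 at 6 h, and all 3 time points overlapped. At each time point the higher value came from the array with the brighter hybridisation controls. Its mean log2 value of 5.82 lay just above the filter at 5.81. The log2 changes were -1.17 ± 0.80 at 2 h (95% interval -2.93 to 0.60, adjusted p = 0.393, limma), -0.12 ± 0.80 at 6 h (-1.89 to 1.64, adjusted p = 0.924) and 1.04 ± 0.80 from 2 h to 6 h (-0.72 to 2.81, adjusted p = 0.482). Without replicate 1 at 2 h the change at 2 h was -0.18 and that from 2 h to 6 h was 0.05, so both rested on that array. Without replicate 2 at 0 h the change at 2 h was -1.64. EXPA7 was dim as well, with signals of 18.1 and 37.1 at 0 h, then 23.2 and 3.0 at 2 h, and then 28.9 and 62.8 at 6 h.

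EXPB1 was the only beta expansin among the 6 genes. Its signal was 76.7 and 70.2 at 0 h, then 27.1 and 12.2 at 2 h, and then 31.5 and 69.1 at 6 h. The 2 h arrays were the lowest, and those of 6 h spanned the gap between 2 h and 0 h. Without the filter its log2 change was -1.74 ± 0.78 at 2 h (95% interval -3.43 to -0.05, adjusted p = 0.256, limma), -0.59 ± 0.78 at 6 h (adjusted p = 0.689) and 1.15 ± 0.78 from 2 h to 6 h (adjusted p = 0.542). The authors gave detection calls for the array of replicate 1 at 2 h alone. There EXPA8, EXPA18 and EXPB1 were called absent, with detection p-values of 0.150, 0.432 and 0.304, and EXPA4, EXPA15 and XTH20 were called present, with 0.000244, 0.00586 and 0.000244.

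XTH20 encodes a xyloglucan endotransglucosylase/hydrolase that, with XTH19, is known from the rejoining of cut stem tissue. Its signal was 418.4 and 309.5 at 0 h, then 320.9 and 290.6 at 2 h, and then 57.3 and 78.5 at 6 h. The 0 h and 2 h arrays overlapped and both 6 h arrays lay far under them. At 2 h the log2 change was -0.23 ± 0.36 (95% interval -1.03 to 0.56, adjusted p = 0.733, limma), which was 0.04 after centring on array medians. At 6 h it was -2.34 ± 0.36, 5.06-fold lower than at 0 h (95% interval of the log2 change -3.13 to -1.54, adjusted p = 0.000596), with -2.34 in both the brighter and the dimmer arrays. From 2 h to 6 h XTH20 fell 4.30-fold, with a log2 change of -2.11 ± 0.36 (adjusted p = 0.00407). The fall from 0 h to 6 h was called in every alternative fit, and that from 2 h to 6 h in all but the fit without replicate 1 at 2 h (adjusted p = 0.0518).

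Markers of a neighbouring tissue dropped at the same step as XTH20. From 2 h to 6 h 5.59% of all tested probe sets fell. Both endodermis markers that were paired with a probe set of their own, of 10 looked up, were lower at 6 h than at 2 h. They were GSO1, a receptor kinase gene needed to seal the Casparian strip (log2 change -4.04 ± 0.50, adjusted p = 0.000591, limma), and AT1G61590, the kinase gene SGN1 of the same pathway (-3.18 ± 0.38, adjusted p = 0.000498). The GSO1 change was -4.73 without replicate 1 at 6 h and -3.35 without replicate 2. Their summed signal was 1240 and 1518 at 0 h, then 995 and 2108 at 2 h, and then 141 and 90.4 at 6 h. The 3′ to 5′ actin ratios of 6 h were also the highest of the series. The part of these markers or ratios in the fall of XTH20, or in the other changes at 6 h, was not tested. The cortex markers AT1G09750 and AT1G62500 summed to 153 to 174 at 0 h, 62.3 to 128 at 2 h and 77.8 to 89.9 at 6 h. This sum is mostly AT1G09750, whose mean was 151.0 at 0 h and 55.0 at 6 h (adjusted p = 0.0692, limma). AT1G62500 lay below the filter and went the other way, with means of 12.4 at 0 h and 28.85 at 6 h. The phloem marker AT3G12730 stayed between 41.3 and 119.9 on all arrays.

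Among other expansin genes, rises and falls both occurred. The annotation names 38 loci as expansin or expansin-like, and 19 of them were paired with a probe set of 1 gene, 5 of these being the expansins described above. The rest were not analysed here. Of the other 14, 8 were tested. At 2 h 1 of the 8 rose and 1 fell, beside 7.26% and 4.12% of all tested probe sets. At 6 h 2 rose and 2 fell, beside 16.8% and 17%, and from 2 h to 6 h 1 rose and 0 fell, beside 3.13% and 5.59%. Their median log2 change was -0.38 at 2 h and 0.55 at 6 h, beside -0.15 and -0.11 for all tested probe sets.

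EXPA20, an alpha expansin, took a course like that of EXPA4 at a smaller size. Its signal was 160.9 and 139.4 at 0 h, then 548.8 and 654.6 at 2 h, and then 771.9 and 812.9 at 6 h, a log2 change of 1.97 ± 0.31 at 2 h (adjusted p = 0.00266, limma) and 2.36 ± 0.31 at 6 h (adjusted p = 0.000216). The expansin-like gene EXLB1 went the other way, from 2253 and 2947 at 0 h to 240.0 and 420.5 at 2 h and 135.0 and 252.5 at 6 h. It fell 8.00-fold by 2 h (adjusted p = 0.001) and 13.6-fold by 6 h (adjusted p = 5.65e-05). EXLA2 rose late. Its signal was 214.1 and 165.5 at 0 h, then 124.2 and 61.6 at 2 h, and then 551.4 and 552.9 at 6 h. The change of -1.06 ± 0.40 at 2 h was not called (adjusted p = 0.115), while the rise from 2 h to 6 h was (2.59 ± 0.40, adjusted p = 0.00196). EXLA2 was also higher at 6 h than at 0 h (1.53 ± 0.40, adjusted p = 0.012), a call lost without replicate 1 or 2 at 6 h (adjusted p = 0.0664 and 0.0650).

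EXPA9 was lower at 6 h than at 0 h (-1.70 ± 0.49, adjusted p = 0.0196, limma), a call lost without replicate 2 at 0 h (adjusted p = 0.0845) or replicate 1 at 6 h (0.133). The tested genes EXLA1, EXLA3, EXPB3 and EXPB5 were not called in any comparison. EXLA1, with a mean signal of 1760 ± 361 (SD, n = 2) at 0 h and 3006 ± 267 at 6 h, had an adjusted p of 0.0729.

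**Figure D3:**
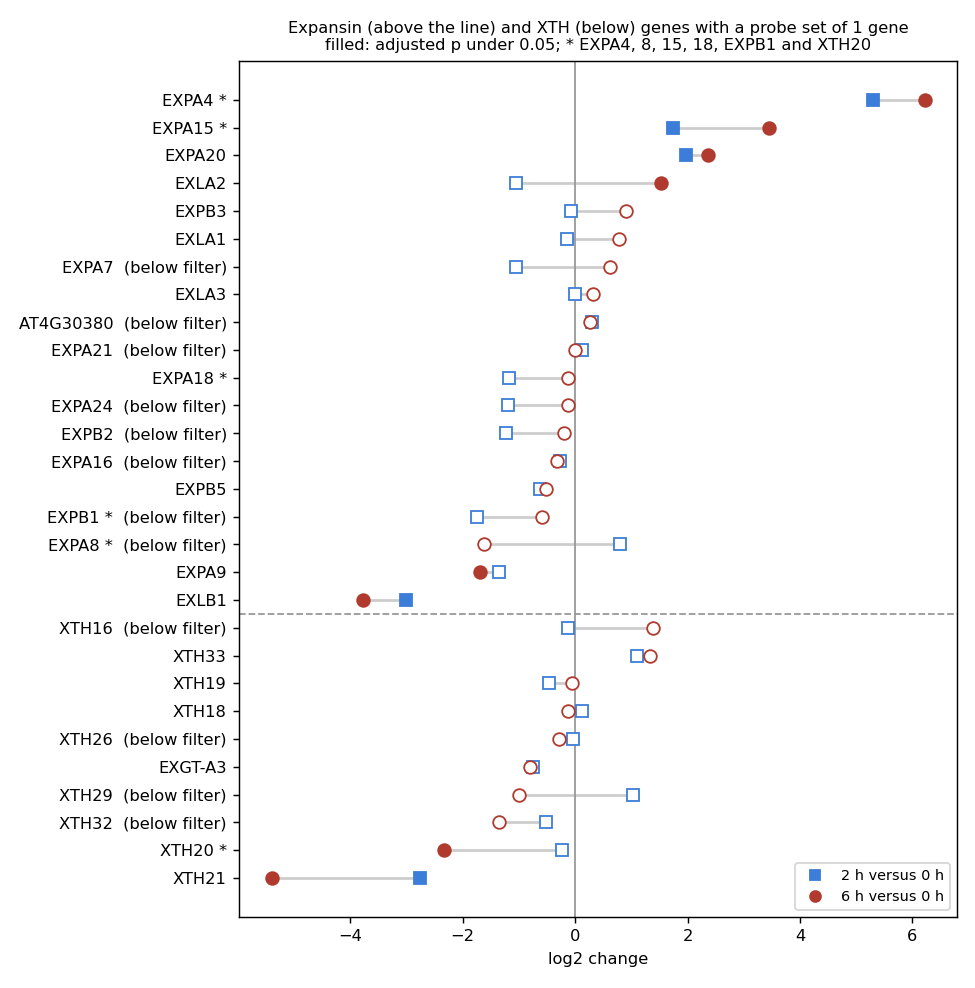
Log2 change at 2 h (squares) and 6 h (circles) against 0 h for the 19 expansin genes above the dashed line and the 10 XTH genes below it. Filled symbols have an adjusted p under 0.05, stars mark the 6 genes, and genes below the filter come from the fit without it and are drawn open. EXPA4 and EXPA15 lie at the high end of the expansins and EXLB1 at the low end, and XTH20 and XTH21 are the XTH genes with filled symbols.

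Of the XTH family 10 of 33 annotated loci were paired with a probe set of 1 gene, 6 were tested, and the unpaired loci were not analysed here. Of all tested probe sets 4.12% fell at 2 h, 17% at 6 h and 5.59% from 2 h to 6 h. Besides XTH20 only XTH21 was called among the 5 others, lower in each comparison. XTH21 had no value in the fits without replicate 1 or 2 at 0 h. Whether its calls hold without either of those arrays was thus not tested. XTH21 also had no value with a stricter filter, nor from 2 h to 6 h in a fit of those times alone. Its signal was 490.0 and 455.0 at 0 h, then 52.7 and 81.5 at 2 h, and then 2.1 and 13.2 at 6 h, so XTH21 was already down at 2 h, when XTH20 was not called. The authors' detection call for XTH21 was absent on the sole array that has calls (2 h, replicate 1), and both 6 h signals were lower still. The log2 change was -2.76 ± 0.62 at 2 h (adjusted p = 0.0155, limma) and -5.39 ± 0.62 at 6 h (adjusted p = 8.75e-05). Its size at 6 h depends on the pseudocount, with -4.18 at a pseudocount of 20 and -6.09 at one lower than 5, and on the arrays of 6 h, with -4.71 without replicate 1 and -6.07 without replicate 2. The 2 h call was lost without replicate 1 or 2 at 2 h (adjusted p = 0.124 and 0.0859). The fall from 2 h to 6 h (-2.64 ± 0.62, adjusted p = 0.0218) lost its call without replicate 1 or 2 at 2 h (0.0893 and 0.204) or replicate 1 at 6 h (0.0838). It was 6.21-fold with all arrays, 3.88-fold without replicate 1 at 6 h, 9.95-fold without replicate 2 at 6 h, 3.17-fold at a pseudocount of 20 and 9.60-fold at the lower one.

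XTH18, XTH19, XTH33 and EXGT-A3 were tested and not called. XTH19 and XTH18 varied widely between the arrays of 6 h, with 93.2 and 599.8 for XTH19 and 227.3 and 1355 for XTH18. They also differed between the arrays of 2 h, with 120.8 and 258.8 for XTH19 and 328.7 and 1337 for XTH18. These sequences belong to 1 family, and cross-hybridisation between its members was not tested. The median change of the 5 other XTH genes was -0.47 at 2 h and -0.12 at 6 h, beside -0.15 and -0.11 for all tested probe sets.

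Other wall genes were covered thinly. Among all tested probe sets 4.12% fell at 2 h, 17% at 6 h and 5.59% from 2 h to 6 h, while 16.8% rose at 6 h. Of the genes for xyloglucan synthesis 4 of 12 were tested, and 3 of these were not called in any comparison. The 4 had a median log2 change of 0.24 from 2 h to 6 h, beside 0.1 for all tested probe sets. The remaining gene CSLC04, a glucan synthase gene of the xyloglucan backbone, fell at the same step as XTH20. Its signal was 2339 and 2298 at 0 h, then 3489 and 2225 at 2 h, and then 669.7 and 609.9 at 6 h, a log2 change of -2.12 ± 0.32 from 2 h to 6 h (adjusted p = 0.00195, limma). Of 25 loci of pectin methylesterases and their inhibitors 2 were tested, and ATPMEPCRB was not called in any comparison. The methylesterase gene PMEPCRF fell at both times, with log2 changes of -1.82 ± 0.31 at 2 h (adjusted p = 0.00397, limma) and -2.76 ± 0.31 at 6 h (adjusted p = 7.79e-05). COB, needed for oriented cellulose deposition and the sole gene tested of 16 for cellulose synthesis, was lower at 6 h (-1.47 ± 0.42, adjusted p = 0.0188). Its call was lost without replicate 2 at 0 h (-0.85, adjusted p = 0.119) or replicate 1 at 6 h (adjusted p = 0.125) and after centring on medians (0.0614), and its change was -2.09 without replicate 1 at 0 h. No gene for pectin cleavage was tested. Of 87 loci matched as extensins and arabinogalactan or proline-rich proteins 1 was tested, PRP39, which is a pre-mRNA processing gene by name and function and rose at 6 h (1.57 ± 0.33, adjusted p = 0.00372).

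The 3 genes nearest to each of the 6 were found by the root mean square difference of their log2 values over the 6 arrays, each gene centred on its own mean, among the other tested genes with a probe set of their own (up to 7429). The nearest gene to EXPA4 was PUCHI, a transcription factor gene of lateral root primordia, at 0.42, beside a spread of 2.79 of EXPA4 around its own mean. PUCHI read 85.4 and 33.5 at 0 h, then 1524 and 1266 at 2 h, and then 6237 and 3720 at 6 h. AT3G01490 (0.51) and AT3G57950 (0.57) followed. For EXPA15 they were AT3G57940 (0.17), AT5G37530 (0.19) and AT2G14880 (0.25), beside a spread of 1.44. AT3G57940 had almost the signals of EXPA15, with 152.2 and 82.1 at 0 h, then 396.0 and 384.4 at 2 h, and then 1261 and 1031 at 6 h.

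XTH20 had the closest match of the 6 genes, AT1G06550 at 0.087, beside a spread of 1.07, followed by AT1G06000 (0.21) and AT1G32120 (0.23). AT1G06550 read 1326 and 971.9 at 0 h, then 1068 and 833.5 at 2 h, and then 199.4 and 233.1 at 6 h. EXPA8 was nearest to AT4G17100 (0.38), AT4G36500 (0.39) and AT5G25940 (0.39), all lower at 6 h than at the other times. The genes nearest to EXPA18 were AT5G20560 (0.25), AT3G02400 (0.27) and AT1G76820 (0.27), and those nearest to EXPB1 were scpl20 (0.21), AT4G35140 (0.25) and AT4G29890 (0.26). The 3 neighbours of EXPA18 share its low value on replicate 1 at 2 h, from 21.3 to 26.1. Neighbours depended on the scale, in 3 alternatives chosen after seeing the data. With a pseudocount of 20, 1 of the 3 neighbours of EXPA4, 3 of EXPA15, 2 of XTH20, 2 of EXPA18, 1 of EXPB1 and 0 of EXPA8 were kept. With quantile normalization 1 was kept for XTH20 and EXPA8, 2 for EXPA15, EXPA18 and EXPB1, and 3 for EXPA4. With the lower pseudocount 2 were kept for XTH20 and EXPA8 and 3 for each of the other genes.

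**Figure D4:**
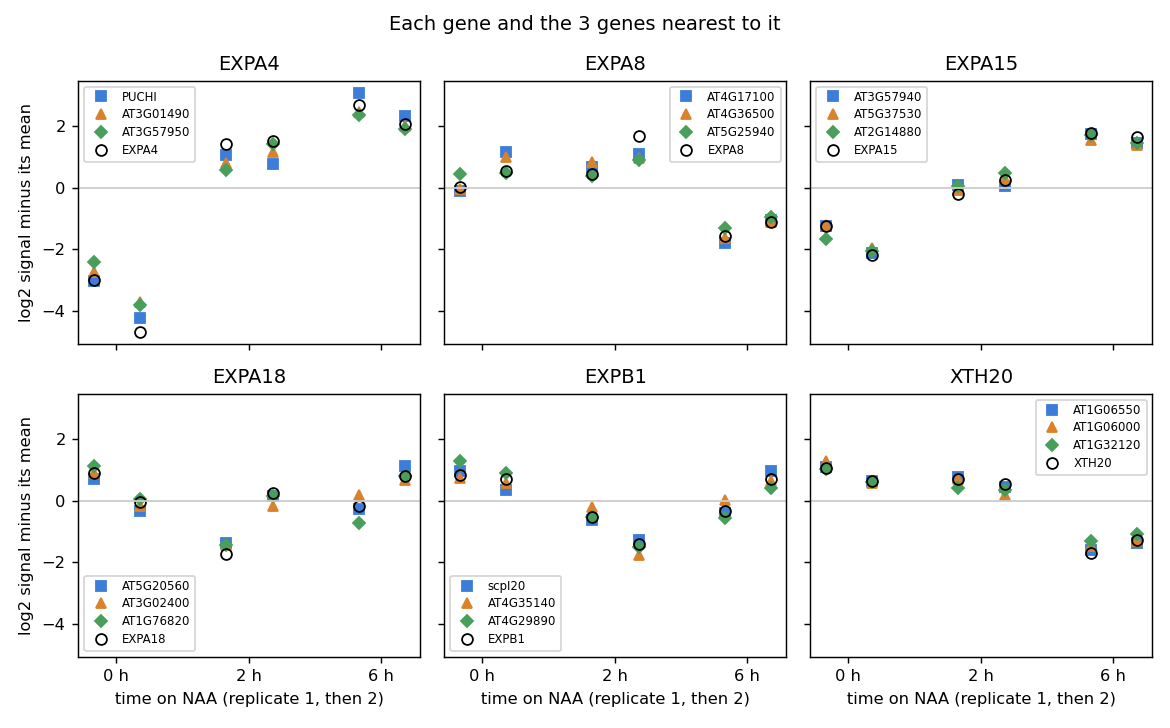
Log2(signal + 5) minus each gene's own mean over the 6 arrays, for the 6 genes (open circles) and the 3 genes nearest to each (coloured), with replicate 1 then replicate 2 at each time point. The neighbours of XTH20, EXPA15, EXPA18 and EXPB1 lie 0.087 to 0.27 from the gene, and those of EXPA4 and EXPA8 lie 0.38 to 0.57 away. The spread of EXPA4 around its own mean, 2.79, is also the largest of the 6 genes.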

How the data were processed

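Signal intensities were deposited on a linear scale, 1 per probe set and array, made with MAS5 per the submitters' processing notes, which name no version here. The mean after trimming 2% at each end was 250 on every array, which shows the authors' scaling. The authors also deposited detection p-values and calls for replicate 1 at 2 h, whose signals equalled those of the series table. Of 22810 probe sets 64 controls were left out. Signals were turned into log2(signal + 5), and 13647 probe sets passed the filter, a mean above the 40th percentile. Log2 changes of dim genes are understated on this scale.

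All 6 arrays entered 1 limma fit (version 3.58.1, R 4.3.3, eBayes with trend), which left 3 residual and 8.26 prior degrees of freedom. P-values were adjusted by Benjamini-Hochberg over all tested probe sets. The fit was also run on simulated normal data drawn from its own means and spreads, which cannot check the noise of the real arrays. Arrays have no read depth, and their number limits the precision. Genes were named from GEO's platform annotation, updated through TAIR10.1 (13436 of 13513 probe sets with 1 gene), and 503 probe sets with several genes were not used. Named were the 6 genes, called genes of the lists (up to 4 per list, direction and comparison, and all of the expansins and XTHs), and the 3 nearest genes. The genes, lists and alternatives were chosen with earlier results of these data known.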

Additional observations from a re-analysis of the deposited data

How the results depend on the processing

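The rises of EXPA4 and EXPA15 and the fall of XTH20 from 0 h to 6 h kept their call under all 17 alternatives, as did the rise of EXPA4 at 2 h. With the replicate number as a block (the deviations of same-numbered arrays correlated at 0.0565, 0.105 and 0.153, so the numbers were not taken as pairs) 2038, 5106 and 1662 probe sets were called at 2 h, at 6 h and from 2 h to 6 h, against 1553, 4612 and 1190, and no call of the 6 genes changed. Without the intensity trend 976 were called at 2 h, and 1 of the 6 genes from 2 h to 6 h, where the change of EXPA15 was 1.70 (adjusted p = 0.0544, limma). A fit of the 4 arrays of 2 h and 6 h called 1849. The change of EXPA18 at 6 h turned to 0.04 with quantile normalization and to 0.37 without replicate 1 at 6 h, and that of XTH20 at 2 h to 0.04 with median centring. None of these was called, and the cause was not tested.

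Leaving out 1 array in turn gave 473 to 1595 calls at 2 h, 3026 to 4489 at 6 h, 521 to 1734 from 2 h to 6 h, and 2616 to 4072 in the F test (4045 with all arrays). The count at 6 h was 3026 without replicate 1 at 6 h. The lowest counts at 2 h were 656 without replicate 1 and 473 without replicate 2 at 2 h, and the lowest in the F test were 2616 and 2643 without replicate 1 or 2 at 6 h. From 2 h to 6 h it was 526 and 563 without replicate 1 or 2 at 2 h, and 604 and 521 without replicate 1 or 2 at 6 h. Of the 6 genes 1 to 2 were called at 2 h and 0 to 2 from 2 h to 6 h, with 0 without replicate 1 at 2 h. The change of EXPA15 ranged from 1.27 to 2.22 at 2 h and from 1.47 to 1.92 from 2 h to 6 h, that of XTH20 from -2.32 to -1.89 from 2 h to 6 h, and that of EXPA18 at 6 h from -0.60 to 0.37. In 3 of these fits, in the fit with the filter at the 60th percentile and in fits of the 4 arrays that included 2 h, EXPA18 fell below the filter and has no value. With 2 arrays per time point, dim genes such as EXPA8, EXPA18 and EXPB1 have standard errors of 0.78 to 0.81 on the log2 scale.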
